A study of Danio rerio with 18 samples.

Results

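The genes described here encode the proteasome and the proteins that build, open and inhibit it, in whole zebrafish (Danio rerio) sampled at 3 ages. They are the rows of the deposited count table whose name starts with psm, followed by a letter from a to g and a digit, and 54 of the 28870 gene names in the table met that rule. By role they are 9 genes of the alpha ring, 7 constitutive beta genes, 5 inducible or thymic beta genes, 7 ATPases of the regulatory base, 13 non-ATPase genes of the base and lid, 6 assembly chaperones, 5 activators and 1 inhibitor, psmf1. The last member, psmc3ip, carries a matching name but encodes a partner of the recombination machinery of meiosis and no proteasome subunit.

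The proteasome is the protease that degrades most proteins tagged with ubiquitin. Its core is a barrel in which outer rings of alpha subunits gate the entry and inner rings of beta subunits hold the active sites, of which psmb5, psmb6 and psmb7 encode the constitutive ones. In immune cells, and in other cells exposed to interferon, inducible subunits replace them in newly assembled cores, the immunoproteasome, which shifts cleavage towards peptides that MHC class I molecules can present, as worked out mostly in mammals. Regulatory caps made of ATPases and non-ATPase subunits recognise and unfold tagged proteins, while the psme activators open the core without ubiquitin.

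The fish carried the stl297 allele of scospondin, which the series describes as hypomorphic (reduced in function). Its product is the large glycoprotein that assembles into the Reissner fibre inside the brain ventricles and central canal, and the series title places the study among those on scoliosis. Maternal zygotic mutants (MZ), mutant fish born to mutant mothers, were compared with heterozygotes (het), which carry the same allele on one of the paired chromosomes, at 5, 15 and 30 days post fertilisation (dpf). Each of the 6 groups had 3 libraries of whole-body total RNA, no group was treated, and no group without the allele is among the samples. The count columns use "ox" for het and "homoz" for MZ libraries, so parents and clutches may differ between the genotypes and cannot be told apart from the allele. Neither the number of fish per library nor the clutches are stated in the labels, so p-values measure the spread between these libraries.

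Total counts per library were 10178388 to 17141819, and the 54 members held 0.298% to 0.415% of them. Scospondin itself was close to the detection limit, with 8 to 16 reads in MZ and 4 to 16 in het libraries at 5 dpf and at most 7 reads in any later library, so it does not check the genotype labels. Levels are given as normalised read counts (CPM, reads scaled to a fixed library size), or as CPM per kilobase (kb) of the deposited gene length where genes are compared with each other. A gene was called when edgeR's quasi-likelihood test, run over the whole table, gave a Benjamini-Hochberg adjusted p under 0.05. All fold changes are on the log2 scale, with the standard error (SE). In whole-body RNA, fewer cells of a type and less RNA per cell cannot be told apart.

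The core genes were the most abundant members per kb of length. The alpha ring gene psma1 ranked first with a mean of 202 CPM per kb over the 6 group means, followed by psma3 at 165 and psma2 at 161 CPM per kb. The constitutive beta gene psmb7 was next at 154 CPM per kb. All 5 inducible or thymic beta genes lay in the last 10 places. The row psmd2, named for a large scaffold subunit of the base, had 0 reads in all 18 libraries. The annotation behind the rows is not given in the sources used here, so an empty row does not show that the gene lacked expression.

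At 5 dpf, MZ fish had less RNA of many core and chaperone genes, and of some cap genes, than het fish. MZ fish had more RNA of both copies of the activator gene psme4. Of 48 members tested, 21 were called lower and 2 higher, against a background over all 19779 genes tested of 19.6% called lower and 21.1% called higher (40.7% in either direction). The median difference of the members was -0.26, against -0.00 over all genes. Summed over the 16 alpha ring and constitutive beta genes, MZ libraries had 1289 ± 32.0 CPM and het libraries 1640.2 ± 120.4 CPM (SD, n = 3 each). The inducible beta genes that met the naming rule had too few reads to be tested at this age. TMM factors, which scale library totals for composition, were 1.104 to 1.163 in MZ and 0.998 to 1.11 in het libraries at 5 dpf. Their part in the result was not tested, but with library totals alone 13 members were lower and 2 higher, with all 15 among the 23. What share of all genes was called with library totals is not given here.

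Among the alpha ring genes, 6 of 9 were called lower in MZ fish, against 19.6% of all genes tested. The largest of these differences were those of psma6a (-0.48 ± 0.10 SE, edgeR adjusted p = 0.00206) and psma5 (-0.48 ± 0.11 SE, adjusted p = 0.0026), each lower in all 3 MZ libraries than in any het library. Among the constitutive beta genes, 4 of 7 were lower, namely psmb1, psmb2, psmb3 and psmb5, with values from -0.41 for psmb2 to -0.25 for psmb1. The cap showed 3 of 7 ATPase genes lower (psmc2, psmc4 and psmc5). Of 12 tested non-ATPase genes 3 were lower, a share near the 19.6% of all genes. They were psmd4b, which encodes a ubiquitin receptor, psmd7 and psmd8. Of the 6 assembly chaperone genes, psmd9 and psmd10, whose products help build the base, and psmg3, whose product helps build the alpha ring, were lower. When each library was left out in turn, 14 to 27 members were called, and 13 of the 23 were called every time. The count was 14 without MZ replicate 3 or het replicate 2 and 15 without MZ replicate 2 or het replicate 1.

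**Figure D1:**
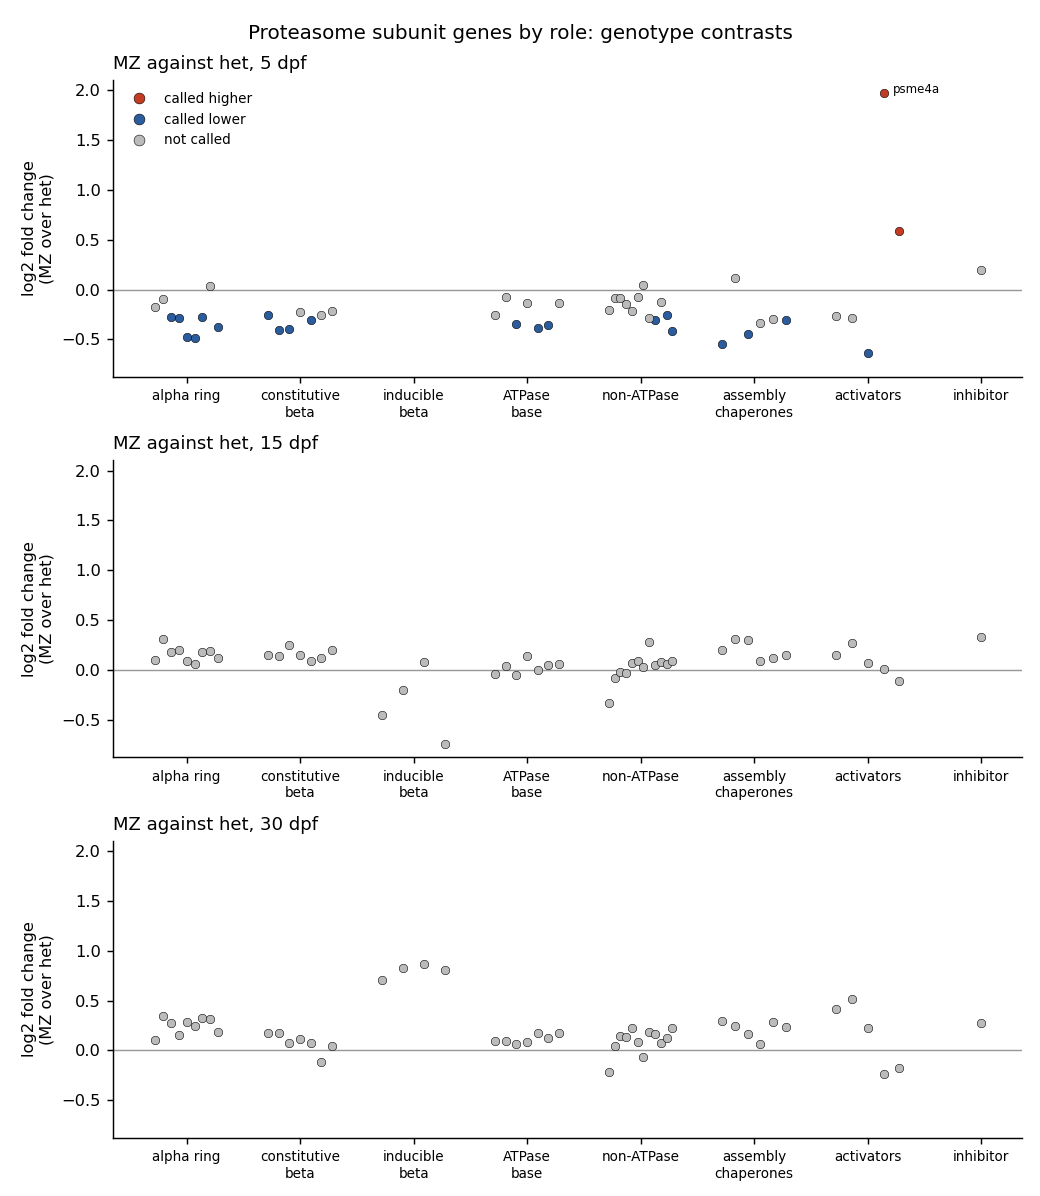
Log2 fold change of MZ over het fish (y axis) for each tested member by role (x axis) at 5, 15 and 30 dpf, with 1 point per gene and colour for the edgeR call, red higher and blue lower. At 5 dpf most points lie below 0 and psme4a stands at 1.97, whereas at 15 and 30 dpf 0 of 52 tested members were called; psmc3ip is not drawn.

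The 3 genes of the constitutive active sites had lower RNA in every MZ library at 5 dpf. The chymotrypsin-like subunit gene psmb5 had 73.7, 59.5 and 70.2 CPM in MZ libraries at 5 dpf, against 85.8, 96.7 and 82.0 CPM in het libraries. The caspase-like subunit gene psmb6 had 81.9, 66.2 and 71.1 CPM in MZ libraries, against 90.4, 99.0 and 85.3 CPM in het libraries. The trypsin-like subunit gene psmb7 had 159, 160.1 and 169.6 CPM in MZ libraries, against 194, 216 and 186 CPM in het libraries. None of the 3 overlapped between the genotypes, but of 48 tested members 36 were wholly lower and 3 wholly higher in MZ libraries. The share of all genes without overlap was not computed, so the lack of overlap adds nothing to the test. The difference passed the test for psmb5 (-0.30 ± 0.11 SE, edgeR adjusted p = 0.0321) and missed it for psmb6 (-0.25 ± 0.10 SE, adjusted p = 0.0659) and psmb7 (-0.21 ± 0.10 SE, adjusted p = 0.0846). The call of psmb5 was kept in only 2 of 6 fits that left out 1 library: it was lost without MZ replicate 2 or 3 and without het replicate 1 or 2, with values of -0.37 to -0.22 over all 6.

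The activators did not move together at 5 dpf. The gene psme4a, 1 of 2 copies of the gene for a large activator that in mammals is known from spermatogenesis, had 17.3, 25.4 and 24.8 CPM in MZ libraries, against 6.88, 4.73 and 6.13 CPM in het libraries. Its paralogue psme4b had 30.5, 30.2 and 31.2 CPM in MZ libraries, against 22.3, 21.1 and 20.9 CPM in het libraries. The groups did not overlap for either copy, and both were called higher in MZ fish, psme4a by 1.97 ± 0.18 SE (edgeR adjusted p = 1.91e-06) and psme4b by 0.59 ± 0.10 SE (adjusted p = 0.000455). The nuclear activator gene psme3 went the other way, with 30.3, 23.3 and 27.7 CPM in MZ libraries, against 50.7, 45.2 and 37.5 CPM in het libraries. That difference was -0.64 ± 0.13 SE (edgeR adjusted p = 0.0011). All 3 calls were kept whichever library was left out.

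The interferon-responsive activator pair psme1 and psme2 was low in both genotypes at 5 dpf. The gene psme1 had 7.21, 7.67 and 5.96 CPM in MZ libraries, against 10.4, 9.36 and 6.69 CPM in het libraries. Its partner psme2 had 3.89, 5.53 and 5.03 CPM in MZ libraries, against 5.52, 5.71 and 7.01 CPM in het libraries. The genotypes overlapped for both genes, and neither was called (psme1 -0.27 ± 0.19 SE, edgeR adjusted p = 0.265; psme2 -0.29 ± 0.20 SE, adjusted p = 0.271). The inhibitor gene psmf1 had 9.52, 8.41 and 8.41 CPM in MZ libraries, against 8.18, 8.28 and 7.83 CPM in het libraries, each MZ library being above each het library, a difference of 0.19 ± 0.15 SE that did not pass the test (adjusted p = 0.32).

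**Figure D2:**
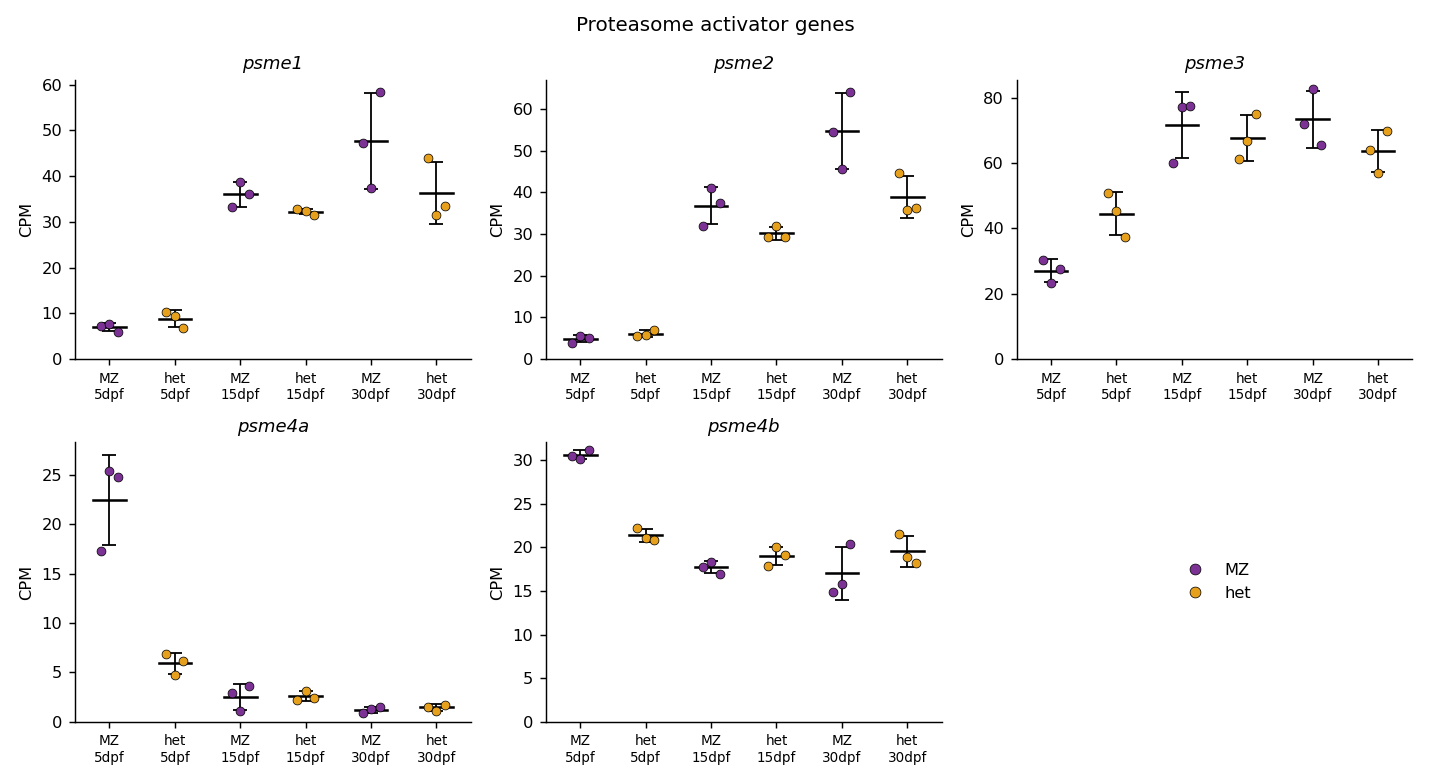
Normalised read count in CPM (y axis) of the 5 activator genes in each library of MZ (purple) and het (orange) fish at 3 ages, with 1 point per library and bars for the mean ± SD of 3 libraries. The psme4a points of MZ fish at 5 dpf, 17.3 to 25.4 CPM, lie above all other points of that gene, while psme1 and psme2 are highest at 30 dpf in both genotypes by mean.

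The meiosis gene psmc3ip gave the largest fall at 5 dpf among the rows that met the naming rule. It had 1.63, 1.15 and 0.993 CPM in MZ libraries, against 4.54, 4.14 and 3.28 CPM in het libraries. The groups were well apart (-1.56 ± 0.27 SE, edgeR adjusted p = 0.00045). A list of 12 genes of testis and meiosis, which includes psmc3ip itself, had 3 that could be tested at 5 dpf. Only psmc3ip was called, against 40.7% of all genes called in either direction, so the count says nothing of meiosis genes as a group.

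At 15 dpf no member was called between the genotypes. With edgeR 0 of 52 tested members passed, against a background of 0.886%, and DESeq2 also called 0. The median was 0.09, against -0.01 over all genes; with library totals in place of TMM factors it was -0.03, where the all-gene median was -0.13. Leaving out MZ replicate 1 gave 1 call, the alpha ring gene psma2.

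At 30 dpf the members leaned higher in MZ fish without passing the test. With edgeR 0 of 52 tested members passed, against a background of 3.29%. DESeq2, for which the share of all genes is not given here, called 2, psmb12 and psme2. The median was 0.18, against 0.00 over all genes, and the 4 tested inducible beta genes had the largest values, 0.71 to 0.86. The constitutive beta genes had a median of 0.07, from -0.12 to 0.18. Leaving out MZ replicate 3 gave 2 calls, psma2 and the assembly chaperone gene psmg2.

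Between 5 and 15 dpf proteasome RNA was higher at the later age in both genotypes, with more members called in MZ fish. In MZ fish 45 of 51 tested members were higher at 15 than at 5 dpf and 2 lower, against backgrounds of 27.7% higher and 29.3% lower over all genes (57.0% called in either direction). In het fish 26 of 51 were higher and 1 lower, against backgrounds of 19.7% and 20.0% (39.7% in either direction). The higher members of both genotypes include psmb8a, psmb9a and psmb12, which passed the filter on low counts through their 15 dpf libraries. The median difference was 0.66 in MZ fish, against -0.07 over all genes, and 0.25 in het fish, against -0.03. All 7 constitutive beta genes and 6 of 7 ATPase genes were higher in MZ fish, against 2 of 7 and 0 of 7 in het fish. With library totals in place of TMM factors the counts were smaller, the share of all genes not being given here. In MZ fish 27 members were then higher and 3 lower, and in het fish 15 higher and 1 lower. That setting moved the all-gene median in MZ fish to -0.40, and relative to it the members' median was 0.72, against 0.73 as reported.

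The constitutive catalytic genes of MZ fish at 15 dpf reached the upper end of their range. At that age psmb5 had 96.1, 105.6 and 111 CPM in MZ libraries, against 92.0, 101.7 and 97.5 CPM in het libraries. The gene psmb6 had 106.5, 126.6 and 114 CPM in MZ libraries, against 103, 103.4 and 111 CPM in het libraries. The gene psmb7 had 218, 239 and 235 CPM in MZ libraries, against 193, 203 and 199 CPM in het libraries. The genotypes thus overlapped for psmb5 and psmb6, and for psmb7 each MZ library was above each het library. Against 5 dpf, the MZ values were higher by 0.59 ± 0.11 SE for psmb5, 0.63 ± 0.11 SE for psmb6 and 0.48 ± 0.10 SE for psmb7 (edgeR adjusted p = 0.000472, 0.000306 and 0.000817). None of the 3 was called in het fish over the same step. Their values there were 0.15 ± 0.10, 0.22 ± 0.10 and 0.01 ± 0.09 SE (edgeR adjusted p = 0.234, 0.0756 and 0.922). In MZ fish the calls of psmb5 and psmb7 were each kept in 5 of 6 other settings, and that of psmb6 in all 6. The 3 genes summed to a mean of 303.6 CPM at 5 dpf and 450.6 CPM at 15 dpf in MZ fish. With library totals in place of TMM factors these means were 344.5 and 397.4 CPM.

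By 30 dpf the constitutive catalytic genes were close together in the genotypes. The gene psmb5 had 94.0, 96.4 and 84.5 CPM in MZ libraries, against 87.2, 99.1 and 79.3 CPM in het libraries. The gene psmb6 had 97.7, 96.6 and 88.4 CPM in MZ libraries, against 95.8, 112 and 104.1 CPM in het libraries. The gene psmb7 had 186, 195 and 157 CPM in MZ libraries, against 162, 187 and 179.8 CPM in het libraries. The ranges overlapped for all 3, and none was called between the genotypes or between 30 and 15 dpf.

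The activator genes took opposite courses over the first age step. At 15 dpf psme1 had 33.1, 38.7 and 36.1 CPM in MZ libraries, against 32.7, 32.5 and 31.5 CPM in het libraries. The gene psme2 had 32.1, 41.1 and 37.5 CPM in MZ libraries, against 29.3, 32.1 and 29.3 CPM in het libraries. All 15 dpf libraries lay above all 5 dpf libraries for this pair. The step was 2.35 ± 0.14 SE for psme1 and 2.92 ± 0.16 SE for psme2 in MZ fish (edgeR adjusted p = 2.3e-08 and 1.18e-08), and 1.89 ± 0.14 SE and 2.31 ± 0.13 SE in het fish (adjusted p = 8.81e-08 and 6.14e-09). The nuclear activator gene psme3 was also higher at 15 dpf in both genotypes, by 1.37 ± 0.13 SE in MZ and 0.62 ± 0.12 SE in het fish (edgeR adjusted p = 1.89e-06 and 0.000738). It had 59.9, 77.2 and 77.6 CPM in MZ libraries at 15 dpf, against 61.3, 66.7 and 75.1 CPM in het libraries, and 72.0, 82.6 and 65.5 CPM in MZ libraries at 30 dpf, against 64.0, 57.1 and 69.9 CPM in het libraries. These ranges overlapped at both ages.

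The pair psme1 and psme2 stayed high at 30 dpf. At that age psme1 had 47.2, 37.4 and 58.4 CPM in MZ libraries, against 44.0, 31.4 and 33.5 CPM in het libraries. Its partner psme2 had 54.6, 45.7 and 64.1 CPM in MZ libraries, against 44.7, 35.8 and 36.4 CPM in het libraries. The genotypes overlapped for psme1 and not for psme2, and neither difference passed the test (psme1 0.42 ± 0.18 SE, edgeR adjusted p = 0.208; psme2 0.52 ± 0.15 SE, adjusted p = 0.0823). Over 15 dpf, psme2 was higher by 0.63 ± 0.15 SE in MZ and 0.37 ± 0.11 SE in het fish (edgeR adjusted p = 0.0113 and 0.0356), and the call in het fish was kept in 2 of 6 fits that left out 1 library.

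The copy psme4a fell over that step in both genotypes, and psme4b in MZ fish. At 15 dpf psme4a had 2.93, 1.07 and 3.64 CPM in MZ libraries, against 2.16, 3.14 and 2.44 CPM in het libraries. At 30 dpf it had 0.869, 1.29 and 1.46 CPM in MZ libraries, against 1.51, 1.11 and 1.72 CPM in het libraries. The genotypes, far apart at 5 dpf, overlapped at both later ages. Between 5 and 15 dpf psme4a fell by 3.11 on the log2 scale in MZ fish (SE 0.28, edgeR adjusted p = 8.42e-07) and by 1.20 in het fish (SE 0.23, adjusted p = 0.000754). The copy psme4b had 17.8, 18.3 and 17.0 CPM in MZ libraries at 15 dpf, against 17.9, 20.0 and 19.1 CPM in het libraries, and fell by 0.82 in MZ fish (SE 0.11, edgeR adjusted p = 4.58e-05). In het fish psme4b was not called (-0.16 ± 0.11 SE, adjusted p = 0.266). At 30 dpf it had 14.8, 15.8 and 20.4 CPM in MZ libraries, against 21.5, 18.9 and 18.2 CPM in het libraries, and the genotypes overlapped. Per kb of length, psme4a made up 43.4% ± 5.2 of the 2 copies in MZ and 22.5% ± 2.9 in het fish at 5 dpf (SD, n = 3 each), and 6.94% ± 1.07 in MZ and 7.28% ± 1.65 in het fish at 30 dpf.

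The inhibitor gene psmf1 was higher at 15 than at 5 dpf too. It had 11.7, 16.0 and 16.6 CPM in MZ libraries at 15 dpf, against 11.3, 13.2 and 10.3 CPM in het libraries, and 10.8, 12.3 and 11.2 CPM in MZ libraries at 30 dpf, against 9.65, 9.52 and 9.56 CPM in het libraries. The step from 5 dpf was 0.71 ± 0.16 SE in MZ and 0.53 ± 0.15 SE in het fish (edgeR adjusted p = 0.00213 and 0.0105). The call in het fish was lost when het replicate 2 at 15 dpf was left out. The meiosis gene psmc3ip reached 4.32, 6.22 and 4.85 CPM in MZ libraries at 15 dpf, against 3.90, 3.07 and 4.58 CPM in het libraries. It was thereby higher by 1.96 ± 0.28 SE than at 5 dpf in MZ fish (edgeR adjusted p = 5.81e-05), while in het fish the step was -0.03 ± 0.23 SE (adjusted p = 0.928). Its 30 dpf values were 4.34, 4.09 and 5.05 CPM in MZ libraries, against 3.03, 3.72 and 3.84 CPM in het libraries, without a call.

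Between 15 and 30 dpf few members were called, in shares near or below those of all genes. In MZ fish 6 of 52 tested members were higher at 30 dpf and 1 lower, against backgrounds of 10.2% higher and 9.05% lower (19.3% in either direction). The 6 were the inducible beta genes psmb8a, psmb9a, psmb10 and psmb12, the activator gene psme2 and the lid gene psmd11b. Of these, psmb10 passed the filter on low counts through its 30 dpf libraries. In het fish 3 were higher (psmb12, psme2 and the chaperone gene psmg1) and 4 lower (psma6b, psma8, psmd3 and psmd13), against backgrounds of 10.6% and 10.9% (21.5% in either direction). With library totals in place of TMM factors 12 members were higher and 1 lower in MZ fish, and in het fish 6 were higher and 1 lower. In 1 fit over all 18 libraries 6 were higher and 7 lower in MZ fish. Shares of all genes called under these settings are not given here. All 7 members called in MZ fish were among the 13 called under each of these settings. In het fish the count fell to 3 without replicate 2 at 15 dpf or replicate 1 at 30 dpf, and to 4 without replicate 1 or 3 at 15 dpf. Only psmb12 and psmd13 kept their call in all 6 fits that left out 1 library. Oocyte genes appeared over the same step, with 9 of 9 tested genes higher in MZ and 12 of 12 in het fish, and summed to 47.5 to 379 CPM in MZ and 105 to 373 CPM in het libraries at 30 dpf, against at most 5.80 CPM in MZ and 6.497 CPM in het libraries at 15 dpf. Between the genotypes at 15 dpf only 2 of the 12 matched oocyte genes had enough reads to be tested. Most thus passed the filter on low counts for this step through their 30 dpf libraries, so their being called is no evidence about the list. The part of oocyte genes in the member values was not tested.

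**Figure D3:**
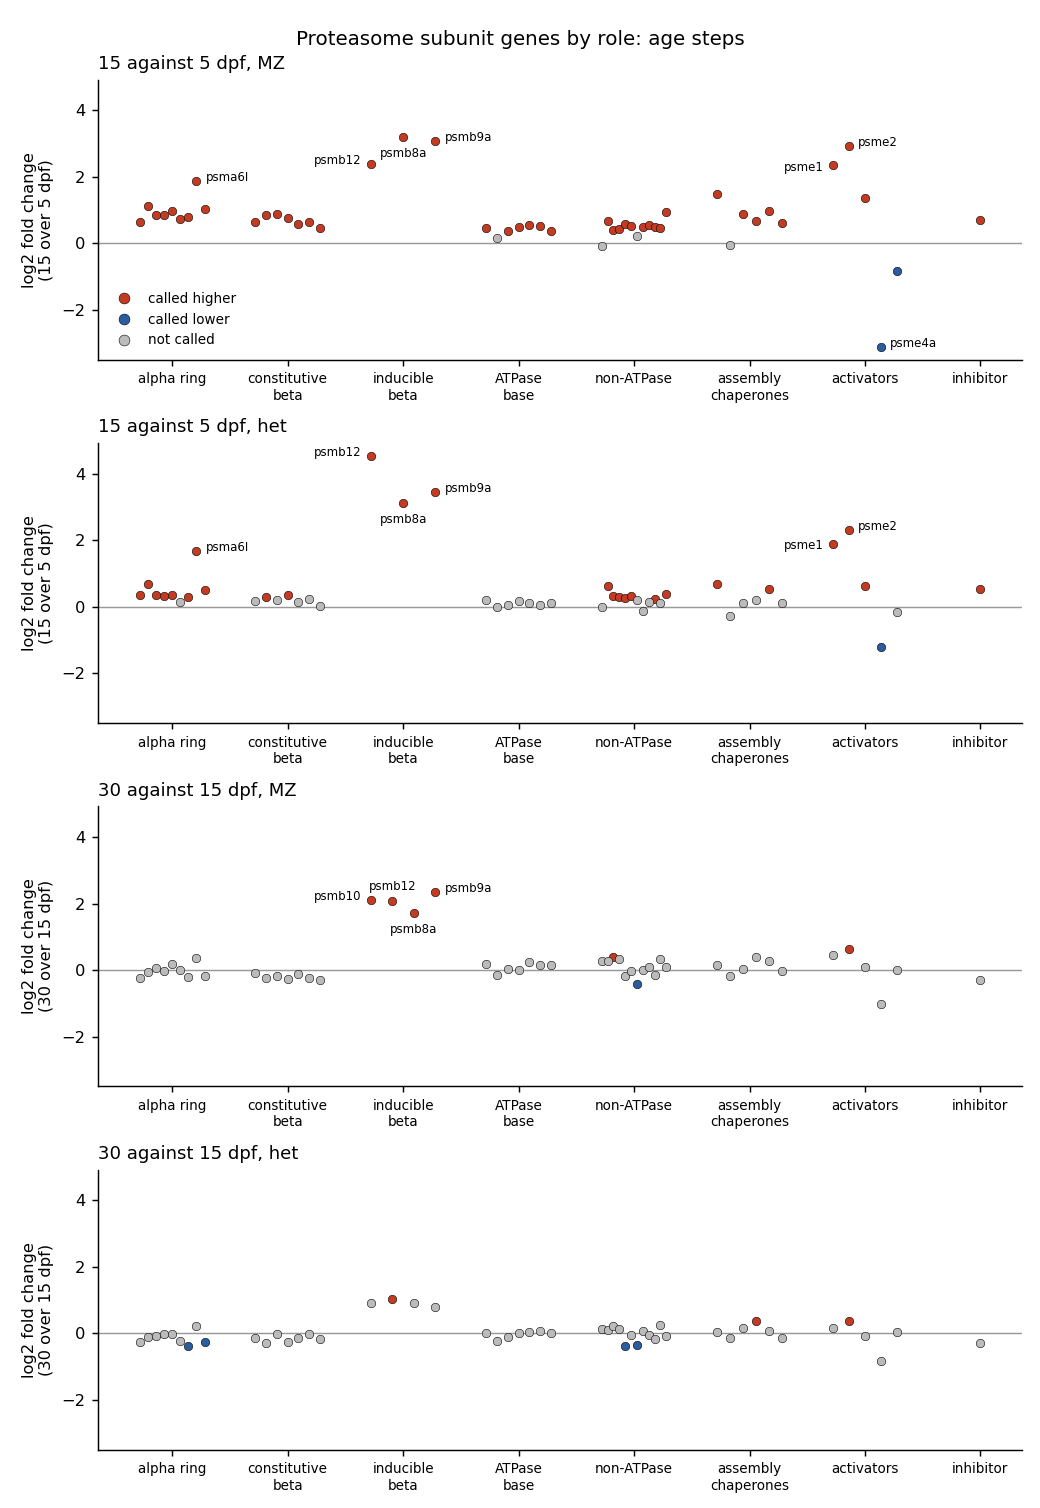
Log2 fold change between ages (y axis, later over earlier) for each tested member by role (x axis), in MZ and het fish for the step from 5 to 15 dpf (upper pair of panels) and from 15 to 30 dpf (lower pair), with colour for the edgeR call, red higher and blue lower. Inducible beta genes and psme2 stand above the other roles at both steps in MZ fish. However, psmb8a, psmb9a and psmb12 passed the filter on low counts through their 15 dpf libraries at the first step. The gene psmb10 did so through its 30 dpf libraries at the second, so this order is no evidence about the class. The psmb12 point in het fish at 15 dpf is a fitted value against 7 reads in all at 5 dpf, and psmc3ip is not drawn.

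The other members called over this second step changed by less than the inducible genes. The lid gene psmd13 had 96.3, 98.7 and 88.9 CPM in het libraries at 30 dpf, against 122, 119 and 125 CPM in het libraries at 15 dpf. The alpha ring gene psma6b had 47.8, 51.5 and 57.4 CPM at 30 dpf, against 61.2, 63.2 and 77.4 CPM at 15 dpf in het libraries, and the chaperone gene psmg1 had 40.2, 43.7 and 40.2 CPM, against 29.4, 32.9 and 33.1 CPM. Within each of these 3 genes the ages did not overlap. The differences were -0.37 ± 0.09 SE for psmd13, -0.36 ± 0.11 SE for psma6b and 0.38 ± 0.10 SE for psmg1 (edgeR adjusted p = 0.0108, 0.0404 and 0.015). The lid gene psmd3 had 98.9, 99.6 and 95.7 CPM in MZ libraries at 30 dpf, against 131, 136 and 144 CPM in MZ libraries at 15 dpf, a difference of -0.42 ± 0.10 SE (edgeR adjusted p = 0.0137). Its call was kept in 3 of 6 fits that left out 1 library.

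The inducible beta genes that met the naming rule had few reads at 5 dpf and many more at 30 dpf. The gene psmb8a, whose mammalian counterpart takes the place of psmb5, had 2, 4 and 8 reads in MZ libraries at 5 dpf, against 6, 2 and 5 in het libraries. At 15 dpf it had 3.16, 2.89 and 2.68 CPM in MZ libraries, against 1.95, 3.07 and 3.25 CPM in het libraries. At 30 dpf it had 6.79, 8.26 and 12.8 CPM in MZ libraries, against 7.78, 3.78 and 4.12 CPM in het libraries. Every 15 dpf library lay above every 5 dpf library, and the genotypes overlapped at each age. The step to 15 dpf was 3.19 ± 0.44 SE in MZ and 3.11 ± 0.40 SE in het fish (edgeR adjusted p = 3.79e-05 and 2.22e-05). For this step psmb8a passed the filter on low counts through its 15 dpf libraries. Neither its call nor the lack of overlap between these ages is thus evidence about the class. The next step to 30 dpf was 1.73 ± 0.27 SE in MZ fish (adjusted p = 0.00129) and 0.92 ± 0.31 SE in het fish, which missed the threshold (adjusted p = 0.0573).

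The gene psmb9a, whose mammalian counterpart takes the place of psmb6, had 4, 4 and 2 reads in MZ libraries at 5 dpf, against 5, 1 and 6 in het libraries. At 15 dpf it had 2.31, 1.82 and 1.64 CPM in MZ libraries, against 2.79, 2.83 and 4.06 CPM in het libraries. At 30 dpf it had 6.79, 9.02 and 12.9 CPM in MZ libraries, against 8.43, 4.82 and 3.67 CPM in het libraries. At 15 dpf all MZ libraries were below all het libraries, and at 30 dpf the ranges overlapped, with the highest values in MZ fish. Neither genotype difference passed the test (15 dpf -0.74 ± 0.29 SE, edgeR adjusted p = 0.196; 30 dpf 0.80 ± 0.32 SE, adjusted p = 0.183). The step from 5 to 15 dpf was 3.08 ± 0.44 SE in MZ and 3.46 ± 0.41 SE in het fish (edgeR adjusted p = 5.68e-05 and 9.15e-06). Here too the gene passed the filter on low counts through its 15 dpf libraries, so its call is no evidence about the class. The step from 15 to 30 dpf was 2.36 ± 0.29 SE in MZ fish (edgeR adjusted p = 0.000286) and 0.79 ± 0.31 SE in het fish (adjusted p = 0.0902).

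Of the inducible beta genes that met the naming rule, psmb12 was the most abundant at 30 dpf per kb. It lies beside psmb9a with no coding gene between them in the RefSeq gene order of assembly GRCz12tu. The psmb8a locus overlaps both in that assembly, so reads may be split between the 3 rows. Libraries of psmb12 held 23, 1 and 8 reads in MZ fish at 5 dpf, against 3, 1 and 3 in het fish, a read ratio of 4.09 with a 95% interval of 1.77 to 10.99, in which 23 of the 32 MZ reads came from 1 library. With no filter on low counts psmb12 was called higher in MZ fish at 5 dpf (1.98 on the log2 scale), and it was called under no other setting there. At 15 dpf it had 5.47, 3.11 and 1.99 CPM in MZ libraries, against 3.48, 3.54 and 5.24 CPM in het libraries. Its 30 dpf values were 11.2, 15.0 and 17.7 CPM in MZ libraries, against 10.7, 8.21 and 6.41 CPM in het libraries. At 30 dpf each MZ library was above each het library, yet the difference of 0.82 ± 0.22 SE missed the threshold (edgeR adjusted p = 0.0722). The read ratio of 15 over 5 dpf in het fish was 24.2, with a 95% interval of 11.5 to 61.0 that covers counting error only, and in MZ fish that step was 2.38 ± 0.53 SE (edgeR adjusted p = 0.00171). The second step was 2.09 ± 0.31 SE in MZ and 1.04 ± 0.23 SE in het fish (edgeR adjusted p = 0.00105 and 0.00855). The genes psmb8a, psmb9a and psmb12 passed the filter on low counts for the 15 against 5 dpf comparison through their 15 dpf libraries, so their being called there is no evidence about the class.

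The gene labelled psmb10 was the lowest of the 4. It had 2, 1 and 0 reads in MZ libraries at 5 dpf, against 0, 4 and 2 in het libraries. At 15 dpf it had 1.46, 1.18 and 0.779 CPM in MZ libraries, against 0.697, 2.201 and 1.85 CPM in het libraries. Its 30 dpf values were 3.24, 4.32 and 6.71 CPM in MZ libraries, against 5.40, 2.22 and 1.43 CPM in het libraries. The genotypes overlapped at each age. It was called between 30 and 15 dpf in MZ fish (2.103 ± 0.36 SE, edgeR adjusted p = 0.0024) and not in het fish (0.92 ± 0.51 SE, adjusted p = 0.226). In MZ fish it had 19, 11 and 9 reads at 15 dpf and passed the filter on low counts for that step through its 30 dpf libraries, so its being called there is no evidence about the class. RefSeq uses the name psmb10 both as a symbol and as a synonym of psmb13a, so which locus this row counted is uncertain. The table also holds a row PSMB10 in capitals, outside the naming rule, with 75, 21 and 61 reads in MZ libraries at 5 dpf, against 95, 75 and 137 in het libraries. It was called lower in MZ fish at that age (-1.09 ± 0.26 SE, edgeR adjusted p = 0.0036). The thymic beta gene psmb11b had at most 10 reads in any library and was not tested.

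**Figure D4:**
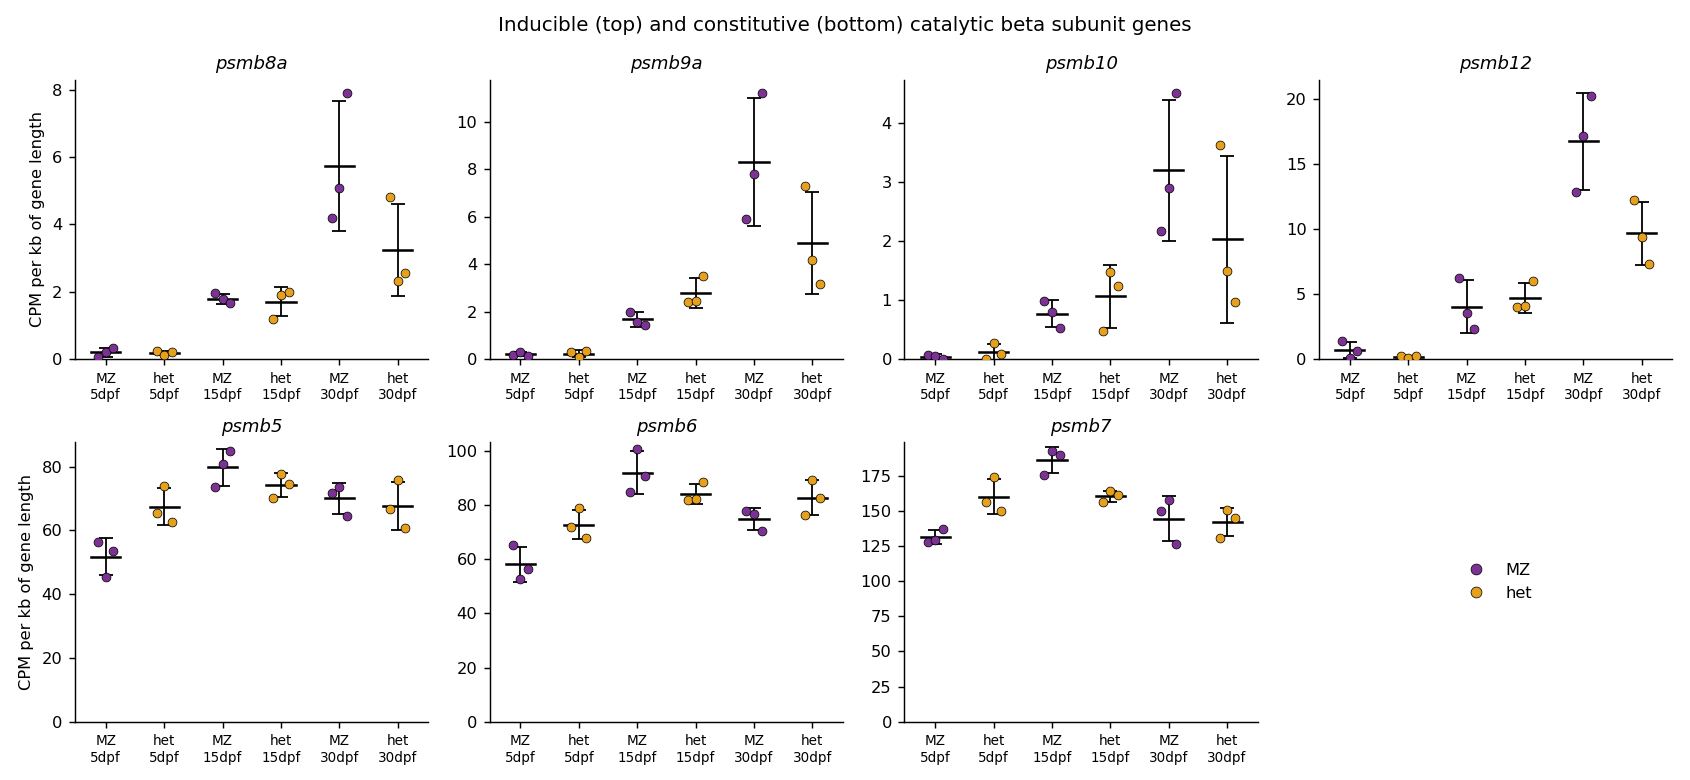
CPM per kb of gene length (y axes, each from 0) of the inducible beta genes (top) and the constitutive catalytic genes (bottom) in each library of MZ (purple) and het (orange) fish, with bars for the mean ± SD of 3 libraries. The inducible genes climb with age in both genotypes, whereas the constitutive genes stay within a narrow range and are lowest in MZ fish at 5 dpf by mean.

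Set against the constitutive active-site genes, the inducible class was a small fraction at 5 dpf and a larger one at each later age. The summed CPM per kb of psmb8a, psmb9a, psmb10 and psmb12, as a percentage of that of psmb5, psmb6 and psmb7, was 0.463% ± 0.204 in MZ and 0.242% ± 0.059 in het fish at 5 dpf (SD, n = 3 each). At 15 dpf it was 2.35% ± 0.91 in MZ and 3.21% ± 0.68 in het fish, and at 30 dpf 11.97% ± 4.34 in MZ and 6.87% ± 2.92 in het fish. The MZ libraries at 30 dpf had 8.39%, 10.7% and 16.8%, against 10.2%, 5.52% and 4.87% in het libraries, so the genotypes overlapped. These percentages depend on which psmb10 row is counted. With PSMB10 in place of psmb10, chosen after the data were seen, they were 1.78% ± 0.66 in MZ and 2.71% ± 0.58 in het fish at 5 dpf, and 5.21% ± 0.82 in MZ and 6.26% ± 0.56 in het fish at 15 dpf (SD, n = 3 each). At 30 dpf they were 20.4% ± 4.8 in MZ and 13.1% ± 3.1 in het fish, with 17.1% to 25.9% in MZ and 10.8% to 16.7% in het libraries. At 5 dpf the genotype with the higher mean thus changed, and at 30 dpf the genotypes no longer overlapped. With the psmb10 row, most of the change with age lay in the inducible sum, with group means of 1.13 to 34.0 CPM per kb in MZ and 0.718 to 19.8 in het fish. The constitutive sum had group means of 241 to 358 CPM per kb in MZ and 292 to 319 in het fish.

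A pair of libraries was high in the inducible genes at 30 dpf, MZ replicate 3 and het replicate 1, in each genotype the highest for psmb8a, psmb9a, psmb10 and psmb12. Without MZ replicate 3 the genotype difference was 0.56 for psmb8a and 0.53 for psmb9a, and without het replicate 1 it was 1.24 and 1.19, and none of these was called. A list of 28 interferon-response genes summed to 360.1, 284 and 552 CPM in MZ libraries at 30 dpf, against 312, 268 and 279 CPM in het libraries, with its highest value in the same MZ library. Its part in the inducible values was not tested.

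Over the first age step most tested antigen-presentation, interferon-response and leukocyte genes were called higher, and over the second step the lists differed. Of 19 tested antigen-presentation genes, 14 were higher and 1 lower at 15 than at 5 dpf in MZ fish, and 16 were higher and 0 lower in het fish, against 57.0% and 39.7% of all genes called in either direction. Their median difference was 1.38 in MZ fish, against -0.07 over all genes, and 1.34 in het fish, against -0.03. Of the interferon-response genes, 12 of 20 tested were higher and 4 lower over that step in MZ fish (median 0.90). In het fish 14 of 21 were higher and 2 lower (median 1.01), against the same shares and medians of all genes. The counts of these 2 lists include genes that passed the filter on low counts through their 15 dpf libraries. Among them is the class I gene mhc1uba in het fish, with 0 reads in each het library at 5 dpf. The calls of such genes are no evidence about the lists. All 7 matched leukocyte markers were higher at 15 dpf in both genotypes, with summed levels of 313 to 398 CPM in MZ and 306 to 332 CPM in het libraries, against 138 to 149 CPM in MZ and 154 to 162 CPM in het libraries at 5 dpf. Between 15 and 30 dpf 11 of 19 antigen-presentation genes were higher and 1 lower in MZ fish, and 7 were higher and 0 lower in het fish, against 19.3% and 21.5% of all genes called. The leukocyte sum, which follows its most abundant genes, was not higher at 30 dpf, with 304 to 349 CPM in MZ and 294 to 301 CPM in het libraries. Of the 7 leukocyte markers, however, 4 were higher and 1 lower over that step in MZ fish (median 0.49, against -0.00 over all genes). In het fish 2 were higher and 1 lower (median 0.15, against 0.01). Of 22 tested interferon-response genes, 5 were higher and 1 lower over that step in MZ fish, while in het fish 2 were higher and 5 lower, with a mean sum of 286 CPM in het fish at 30 dpf, against 305 CPM at 15 dpf. T cell and thymus markers summed to 62.8 to 78.6 CPM in MZ and 58.2 to 80.8 CPM in het libraries at 30 dpf, against 31.3 to 41.7 CPM in MZ and 43.5 to 56.0 CPM in het libraries at 15 dpf. Of 10 macrophage and neutrophil genes, 7 were higher and 0 lower at 15 than at 5 dpf in MZ fish, and 4 higher and 1 lower in het fish. The shares of all genes called in either direction over that step were 57.0% in MZ and 39.7% in het fish. The part of leukocyte number in the inducible subunit levels was not tested.

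Between the genotypes, antigen-presentation genes were called at 5 and 30 dpf. At 5 dpf 4 of 18 tested were higher in MZ fish and 5 lower, against 40.7% of all genes called in either direction, and at 15 dpf 0 of 19 were called, against 0.886%. The class I gene mhc1uba had 28, 16 and 35 reads in MZ libraries at 5 dpf, against 0, 0 and 0 in het libraries, which is at least 7.52-fold higher in MZ fish when het libraries are set at a floor of 3 reads each. This gene is among the 4 called higher and passed the filter on low counts through its MZ libraries, so its call is no evidence about the list. It had reads in every library of both genotypes at 15 and 30 dpf. At 30 dpf 2 of 19 were higher in MZ fish, against 3.29% of all genes called, the class I light-chain gene b2ml (238 and 169.9 CPM in MZ and het fish by mean, 0.51 ± 0.09 SE, edgeR adjusted p = 0.0248) and mhc1zba (398 and 299 CPM, 0.44 ± 0.10 SE, adjusted p = 0.0484). The 4 inducible beta genes were not called at that age.

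**Figure D5:**
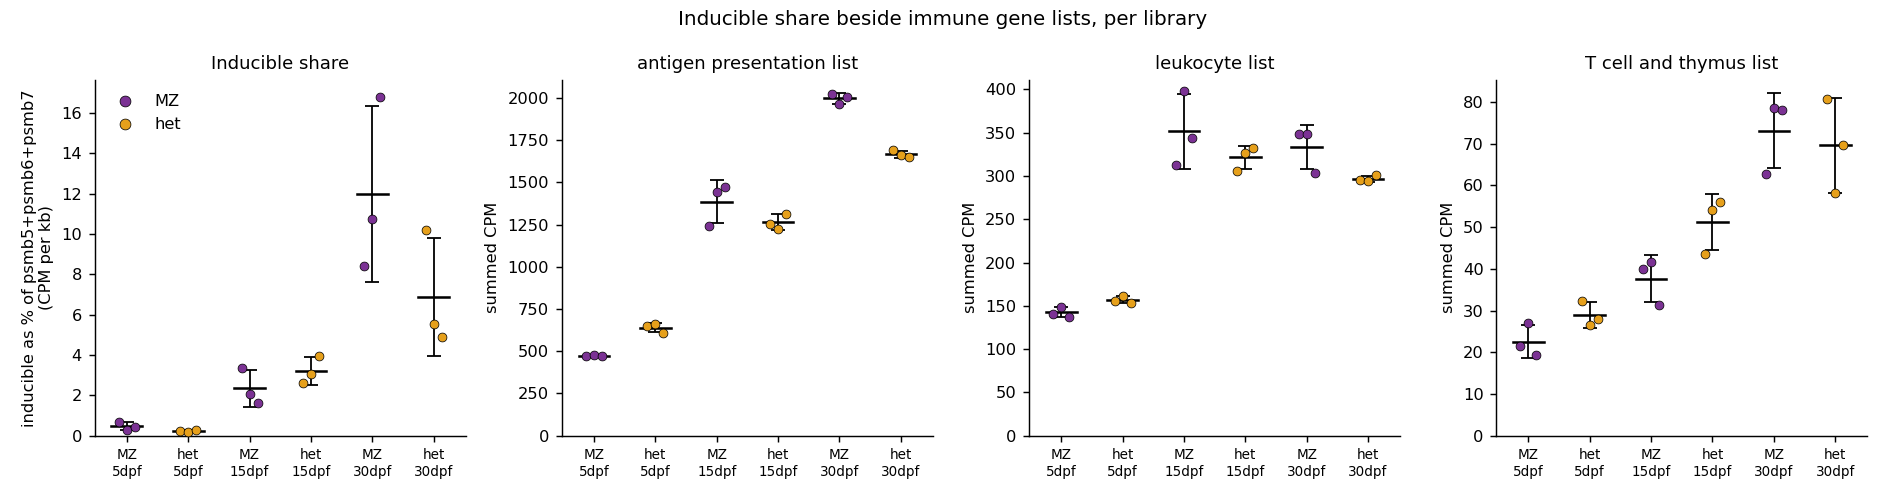
The inducible beta genes as a percentage of psmb5, psmb6 and psmb7 in CPM per kb (left panel) beside the summed CPM of the antigen-presentation, leukocyte and T cell lists (other panels), per library of MZ (purple) and het (orange) fish, with bars for the mean ± SD of 3 libraries. The percentage is 8.39% to 16.8% in MZ and 4.87% to 10.2% in het libraries at 30 dpf. The antigen-presentation sums do not overlap between the genotypes at that age, being higher in MZ fish. At 5 dpf they do not overlap in the other direction, with 470 to 477 CPM in MZ and 609 to 661 CPM in het libraries. The leukocyte sums also do not overlap at 5 dpf, where they are lower in MZ fish, or at 30 dpf, where they are higher. The T cell sums do not overlap at 15 dpf, being lower in MZ fish. At 5 dpf 1 of 7 tested leukocyte genes was called (lower), against 40.7% of all genes. At 30 dpf 0 of 7 leukocyte genes were called, against 3.29%, and at 15 dpf 0 of 8 T cell genes, against 0.886%. The share of gene sums without overlap was not computed, so the lack of overlap adds nothing to the tests.

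Whether the genotype difference itself changed with age was tested over all 18 libraries. The interaction was called for 31 of 52 tested members, against a background of 33.3% of all genes. It was called for 7 of 7 constitutive beta genes and 7 of 9 alpha ring genes, for 3 of 7 ATPase, 4 of 12 non-ATPase and 4 of 6 chaperone genes, and for 4 of 5 activators. Of the 4 tested inducible beta genes only psmb9a was called (edgeR adjusted p = 0.0305). The sum of the alpha ring and constitutive beta genes was lower in MZ fish at 5 dpf, as given above, and was 2269.5 ± 146 CPM in MZ and 2011 ± 81.0 CPM in het fish at 15 dpf. At 30 dpf it was 2017 ± 84.3 CPM in MZ and 1823 ± 52.0 CPM in het fish. With library totals alone the sum at 5 dpf was 1463 ± 69.5 CPM in MZ and 1711 ± 39.7 CPM in het fish. At 15 dpf it was then 2001.7 ± 64.2 CPM in MZ and 1947.9 ± 84.0 CPM in het fish. At 30 dpf it was 1938.5 ± 45.2 and 1862 ± 15.9 CPM (SD, n = 3 each), so the size of these differences depends on the scaling. With library totals in place of TMM factors 13 of the 31 members with a called interaction were called, and no other. For that setting the share of all genes is not given here.

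Genes that work with the proteasome were called between the genotypes at 5 dpf in shares close to the 40.7% of all genes called in either direction (21.1% higher and 19.6% lower). Of 17 matched partners and regulators, 4 were lower and 2 higher in MZ fish. The median was -0.08, against -0.00 over all genes. The lower ones included zfand5a, which encodes a protein that in mammals stimulates the proteasome (103 and 199 CPM in MZ and het fish, -0.88 ± 0.10 SE, edgeR adjusted p = 1.55e-05). Its paralogue zfand5b, named after its values were seen, was higher (201 and 154 CPM in MZ and het fish, 0.45 ± 0.10 SE, edgeR adjusted p = 0.00167). Also lower was shfm1, whose product is a small lid subunit outside the naming rule (57.0 and 86.1 CPM, -0.52 ± 0.12 SE, adjusted p = 0.00328). Of 22 ubiquitin and conjugation genes, 2 were higher and 7 lower, with a median of -0.19, against the same values over all genes. Among the lower ones was ufd1l, which encodes an adaptor of an unfolding ATPase (33.3 and 46.6 CPM in MZ and het fish, -0.41 ± 0.10 SE, edgeR adjusted p = 0.00496). At 15 and 30 dpf 0 genes of either list were called.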

How the data were processed

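RNA of 18 whole-body zebrafish samples was sequenced, 3 libraries for each genotype and age. The authors deposited 1 table of whole-number read counts per gene name, with gene lengths. Per the submitters' processing notes, cutadapt, STAR 2.5.4b, featureCounts 1.6.3 and Subread were used with build GRCz10, and the annotation, strand setting and treatment of shared reads are not given in the sources used here, so paralogues may share reads. Trizol extraction, a QIAGEN column and a SMARTer kit are named in the labels' protocols. All columns matched a sample by name.

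The whole table of counts, as deposited, went into edgeR 4.0.16 (R 4.3.3; filterByExpr, minimum count 10, TMM, quasi-likelihood F test, Benjamini-Hochberg adjustment over all genes). The SE is the absolute log2 fold change divided by the square root of F. The interaction used an F test on 2 degrees of freedom. CPM used TMM factors over 18 libraries. DESeq2 1.42.0 (missing adjusted p-values left out) and other settings were alternatives. Pairs of libraries of a group differed by more than counting noise (chi-square over degrees of freedom 4.73 to 16.9), so none was treated as a duplicate. The edgeR steps of the MZ against het contrast at 5 dpf were tested on simulated counts, and the other steps were not.

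Members and lists were chosen with earlier results of these data known. Values per library are given for psmb5 to psmb13 members, psme1, psme2, psmf1 and, per contrast, the 2 called members with the largest change in each direction; other members named with statistics were chosen after their values were seen. Of other lists, at most 2 called genes per genotype contrast are named, apart from zfand5b. RefSeq (assembly GRCz12tu) served for names and gene order only, with 53 members matched by symbol and 1 by synonym. Intervals and floors cover counting error only. No sequences are shown.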

Additional observations from a re-analysis of the deposited data

Results flagged for a closer look

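The difference between MZ and het fish itself changed with age for 31 of 52 tested members, against 33.3% of all genes tested. These 31 were flagged as differing between ages under the same contrast. In groups of 3 libraries no sample could be tested for standing apart from the others. Among the members described above, the 3 constitutive catalytic genes were flagged with edgeR adjusted p-values of 0.0299 for psmb5, 0.0495 for psmb6 and 0.0199 for psmb7. The means of psmb7 were 163 CPM in MZ and 199 CPM in het fish at 5 dpf, 231 and 199 CPM at 15 dpf, and 179 and 176 CPM at 30 dpf. The call of psmb6 was the least stable, being kept in 5 of 18 fits that left out 1 library and in 0 of 5 other settings.

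The inducible gene psmb9a was flagged at 0.0305, with 1.93 CPM in MZ and 3.23 CPM in het fish at 15 dpf and 9.58 and 5.64 CPM at 30 dpf, and its call was kept in 12 of 18 fits that left out 1 library. All 4 flagged activators had their largest genotype difference at 5 dpf on the log2 scale or, for psme2, the lower value in MZ fish at 5 dpf and the higher one at both later ages. Their adjusted p-values were 0.0163 for psme2, 0.00224 for psme3, 0.000687 for psme4a and 0.00345 for psme4b. The interaction was also called for psma6b (0.00365), psmd13 (0.0279) and psmc3ip (0.000200), each lower in MZ fish at 5 dpf by mean and higher at 15 and 30 dpf.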

How the results depend on the processing

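The 8 counts of called members were recomputed under other size factors (RLE), DESeq2, no filter, library totals without TMM factors, 1 fit over 18 libraries, a replicate block and with each library left out. Shares of all genes called under these other settings are not given here or above. A change in a member count thus cannot be told apart from a change in calling over all genes. With library totals the count was 15 against 23 as reported for MZ against het at 5 dpf, 1 against 0 at 15 dpf, 16 against 27 for 15 against 5 dpf in het fish, 30 against 47 for that step in MZ fish, 13 against 7 for 30 against 15 dpf in MZ fish and 13 against 31 for the interaction. Library totals moved the all-gene median most for 15 against 5 dpf in MZ fish, to -0.40 against -0.07, where the members' median relative to it was 0.72 against 0.73. At 30 dpf DESeq2 called 2 members between the genotypes and 1 fit over all libraries 2, against 0. That fit called 13 (6 higher, 7 lower) for 30 against 15 dpf in MZ fish. The cause was not tested. With row PSMB10 in place of psmb10 the inducible percentage was 1.78, 5.21 and 20.4 in MZ fish at 5, 15 and 30 dpf, against 0.463, 2.35 and 11.97 as reported, and 2.71, 6.26 and 13.1 in het fish, against 0.242, 3.21 and 6.87, since PSMB10 has more reads.

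With 1 library left out the counts were 14 to 27 (5 dpf), 0 to 1 (15 dpf), 0 to 2 (30 dpf), 19 to 26 and 3 to 7 (first and second age step, het), 46 to 48 and 5 to 9 (the same, MZ) and 23 to 35 (interaction). At 15 dpf the uncalled genotype differences changed sign for psmb12 (-0.20 as reported, -0.71 to 0.092 with 1 library left out), which was 0.092 without MZ replicate 3 and 0.017 without het replicate 3. They also did for psmb8a (0.078 as reported, -0.12 to 0.22 with 1 library left out), which was -0.041 with library totals and -0.12 without het replicate 1.

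Replicate numbers showed no strong pairing of the libraries: correlations of same-numbered deviations were -0.12 to 0.145, and no contrast had all 3 above 0.1. For 30 against 15 dpf in het fish, however, all 3 libraries matched best with their own number, against 0 to 2 in the other contrasts. A pairing was thus not excluded. With the replicate block the counts were 19, 0 and 0 for the genotype contrasts at the 3 ages, 22 and 9 for the age steps in het fish, 47 and 6 in MZ fish and 30 for the interaction.

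The 5 inducible or thymic beta genes that met the naming rule had too few reads at 5 dpf to be tested. That limits what can be said of the genotypes at that age, and a p that misses the threshold does not show equal levels.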

Other observations

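The table also holds names in capitals that the naming rule leaves out, chosen here after their values were seen. PSMB10 had 3.95, 1.73 and 4.04 CPM in MZ libraries at 5 dpf, against 6.16, 7.39 and 8.65 CPM in het libraries, and was lower in MZ fish (-1.09 ± 0.26 SE, edgeR adjusted p = 0.0036). At 30 dpf it had 31.1, 22.4 and 28.2 CPM in MZ libraries, against 21.2, 21.4 and 17.98 CPM in het libraries, without a call (0.45 ± 0.15 SE, adjusted p = 0.121). It was higher at 30 than at 15 dpf in both genotypes, by 1.37 ± 0.16 SE in MZ and 0.92 ± 0.13 SE in het fish (edgeR adjusted p = 0.00019 and 0.000386). Its CPM exceeded that of the lower-case psmb10 in every library. The core chaperone gene PSMG4 was lower in MZ fish at 5 dpf (-0.52 ± 0.17 SE, edgeR adjusted p = 0.026). Like psmd2, the rows PSMD2_(2_of_2) and PSMD4_(3_of_3) had 0 reads in all libraries.

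In some families of duplicated subunit genes the share of each copy differed between ages, and in others it differed less. Per kb, psma6l made up 6.56% ± 1.39, 13.4% ± 1.2 and 17.8% ± 2.9 of the 3 psma6 rows in MZ fish at 5, 15 and 30 dpf, and 5.08% ± 0.86, 12.9% ± 1.8 and 17.4% ± 2.8 in het fish (SD, n = 3 each). Between 5 and 15 dpf psma6l was higher by 1.88 ± 0.17 SE in MZ and 1.69 ± 0.16 SE in het fish (edgeR adjusted p = 1.14e-06 and 1.19e-06), the largest step of any alpha ring gene. RefSeq lists psma6b as a synonym of psma6l, so how reads were split between these rows is uncertain. The ATPase copy psmc1a made up 44.8% ± 1.0, 50.1% ± 1.3 and 55.6% ± 3.9 of the psmc1 pair in MZ fish and 47.9% ± 2.5, 51.6% ± 1.6 and 55.9% ± 1.6 in het fish at the 3 ages. The copy psmd4a made up 21.8% ± 1.1, 21.1% ± 1.4 and 20.1% ± 0.17 of the psmd4 pair in MZ fish and 21.5% ± 0.69, 18.6% ± 0.49 and 20.1% ± 2.5 in het fish. The share of psmd11a in its pair was 27.6% ± 0.90, 31.3% ± 0.70 and 29.3% ± 1.2 in MZ fish and 27.7% ± 1.9, 32.2% ± 1.9 and 30.8% ± 1.9 in het fish. The psma6 and psmc1 rows were chosen after their values were seen, and the shares were not tested.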
